A study of Homo sapiens with 30 samples.

Results

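The step from 2.5 to 5 cGy was examined in GM15036 and GM15510, established lines of human lymphoblastoid cells, that is, B cells that Epstein-Barr virus keeps dividing in culture. The arrays were chosen by the dose in their labels, which gave 6 arrays at 5 cGy and 6 at 2.5 cGy, 12 of the 30 arrays of the series. Each line had 3 arrays at each of these doses, and all cells had been exposed to a caesium-137 source. The remaining 18 arrays cover 1, 7.5 and 10 cGy in the same lines. Both groups compared were therefore irradiated, and no unirradiated group was analysed here. Doses carry the unit cGy in the sample labels and Gy in the design text, and the sample labels are followed. How long after exposure RNA was taken is not stated in the sources used here. Each line stands for 1 donor, and whether the 3 arrays of a group represent separate cultures is not stated. Each p-value is thus set against the variation of these arrays alone, and that may be technical.

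Irradiated cells sense DNA breaks through kinases such as ATM, and p53 then raises genes such as CDKN1A, MDM2 and FAS. The endoplasmic reticulum (ER) is the compartment in which secreted and membrane proteins are threaded into the membrane, folded, linked by disulfide bonds and glycosylated. Proteins that fail to fold are handed to ER-associated degradation, and correctly folded ones travel in coated vesicles to the Golgi, where their sugars are trimmed and extended, and on to the surface or the lysosome. B cells depend on this route for surface receptors, HLA molecules and, once they become plasma cells, antibody. When the ER is overloaded, the unfolded protein response raises chaperones such as HSPA5 through promoter elements named ERSE and ERSE-II.

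Signals are MAS5 values of Affymetrix probe sets, linear brightness values for the transcripts they detect, here scaled so that all arrays have the same trimmed mean. In GM15036 the unscaled arrays had nearly the same brightness at both doses, with trimmed means of 49.9 ± 6.13 (SD, n = 3) at 2.5 cGy and 51.3 ± 3.47 at 5 cGy. In GM15510 they did not: the means were 18.7 ± 4.48 and 39.0 ± 26.6. At 5 cGy in that line replicate 3 stood apart at 69.4, against 19.6 and 28.1 on the others. For ACTB, the 3-prime over 5-prime signal ratio, a sign of RNA length, on the log2 scale was 5.51 ± 0.36 at 2.5 cGy and 5.03 ± 0.07 at 5 cGy in GM15036, and 4.29 ± 0.56 and 4.81 ± 1.2 in GM15510. The typical SD of a probe set within a group, on the log2 scale, was 0.19 and 0.20 in GM15036 and 0.30 and 0.26 in GM15510. Of 7 B cell genes, PAX5 lay at 418 to 629 on the 12 arrays, CD74 at 400 to 464, MS4A1 at 232 to 362, HLA-DRA at 138 to 290 and CD22 at 58.4 to 106. The antigen receptor chains were dim, with CD79A at 13.1 to 50.6 and CD79B at 39.0 to 64.7. Of the genes that define other cells, CD14 lay at 0.55 to 10.9, HBB at 9.16 to 22.6, CD3E at 1.97 to 25.7 and COL1A1 at 3.49 to 52.1, ranges that in part overlap those of CD79A and CD79B. In GM15036 the summed signal of 8 erythroid markers was 65.3 to 68.3 at 2.5 cGy and 38.8 to 46.0 at 5 cGy, and that of 17 fibroblast markers was 212.4 to 242.6 and 154.4 to 194.5. Of these, 1 erythroid and 6 fibroblast genes were bright enough to be tested. The sums of 22 T and NK cell markers (245.6 to 312.1, then 205.6 to 285.1) and of 13 monocyte markers (133.8 to 173, then 127.4 to 167.9) overlapped between the doses. The part of brightness, RNA length and these dim markers in the results was not tested, beyond the fits with brightness or the ACTB ratio as a covariate given in the closing section. In such bulk RNA, fewer cells of a type and less RNA per cell cannot be told apart.

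Of 13329 probe sets tested with limma, 356 (2.67%) passed in GM15036 at an adjusted p under 0.05, 261 of them higher (1.96%) and 95 lower (0.713%) at 5 cGy. In GM15510, 342 (2.57%) passed, 188 higher (1.41%) and 154 lower (1.16%). Averaged over the lines, 467 (3.50%) passed, 301 higher (2.26%) and 166 lower (1.25%). The differences were small: the median size among the probe sets that passed was 0.55 on the log2 scale in GM15036, 0.67 in GM15510 and 0.39 over both lines. The probe sets that passed in GM15036 were brighter than most, with a median mean signal of 226 against 110 for those of GM15510 and 38.8 for all tested.

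How many passed in each line depended on where the spread was taken from. Fitted on its own 6 arrays, GM15036 gave 626 and GM15510 gave 6, where the 30 arrays together gave 356 and 342. The share of calls that were higher also moved with the scaling. When unscaled arrays were centred on their median instead, 91.6% of calls in GM15036 were higher (87 higher, 8 lower), 97.2% in GM15510 (449 higher, 13 lower) and 97.9% over both lines (644 higher, 14 lower), against 73.3%, 55.0% and 64.5%. Centring after scaling gave 92.4% (268 higher, 22 lower), 87.5% (251 higher, 36 lower) and 93.4% (550 higher, 39 lower). The first of these settings moved the median of all probe sets to 0.14 over both lines and 0.23 in GM15510, and the second moved it to 0.12 in GM15510. Each lower gene below is given relative to the scaling by the trimmed mean.

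Where a called gene had further tested probe sets, all of them had the same sign for 65.8% of 158 genes in GM15036 and 42.4% of 144 in GM15510, against 49.2% and 43.2% of all 2420 such genes.

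Most calls of 1 line did not pass in the other. In all, 30 probe sets passed in both, and 23 of the 30 had the same direction. They made up 8.43% of the calls of GM15036, where 2.57% of all probe sets passed in GM15510. Of the calls of GM15510 they made up 8.77%, where 2.67% of all passed in GM15036. Across all probe sets the log2 differences of the lines had a Pearson correlation of 0.029 and a Spearman correlation of 0.045, which describes these arrays and carries no test, since genes are not independent. The sign was the same for 52.2% of all probe sets, for 62.6% of the calls of GM15036 and for 60.2% of those of GM15510. The differences of the lines share no arrays, but both tests take the spread of a probe set from the same fit of all 30 arrays. A probe set with a small spread can thus pass more easily in both, so the overlap of calls is not one of independent tests. The arrays of the 2 doses did not overlap for 23.4% of all probe sets in GM15036 (10.7% higher and 12.7% lower at 5 cGy) and for 15.6% in GM15510 (7.86% higher and 7.76% lower). In both lines and the same direction this held for 2.87%, 1.58% higher and 1.28% lower.

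**Figure D1:**
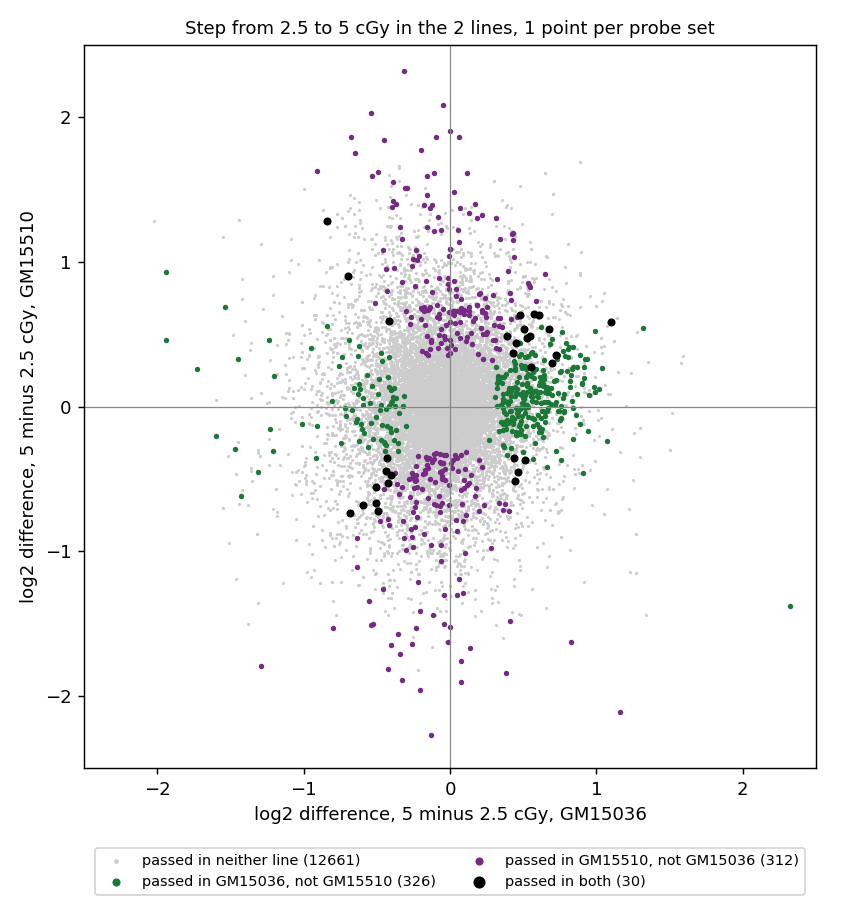
Each point is 1 probe set, placed by its log2 difference between 5 and 2.5 cGy in GM15036 (horizontal axis) and in GM15510 (vertical axis). Of the points, 326 (green) passed in GM15036 and not in GM15510, 312 (purple) passed in GM15510 and not in GM15036, 30 passed in both (black) and 12661 in neither (grey), and the green points lie mostly on the higher side of GM15036 at differences near 0 in GM15510.

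In GM15036 the genes that rose included many of the secretory pathway. ER thioredoxin-family protein ERP44, which holds back unfinished disulfide-linked proteins, had scaled signals of 577, 492 and 510 at 2.5 cGy and 1030, 998 and 963 at 5 cGy. The 5 cGy arrays of this line all lay above the 2.5 cGy arrays, a pattern that 10.7% of all probe sets showed in GM15036. The log2 difference was 0.92 ± 0.10 (SE, adjusted p = 7.14e-07), 1.89-fold. Its other tested probe sets, which are dim, had differences of 0.08 and 0.13 and did not pass. In GM15510 ERP44 read 896, 1050 and 856 and then 1230, 1260 and 1020, which overlap (0.33 ± 0.10, adjusted p = 0.0794), and the lines differed (-0.59 ± 0.14, adjusted p = 0.028).

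EMC7, of the complex that inserts proteins into the ER membrane, went from 497, 506 and 512 to 882, 800 and 789, a difference of 0.70 ± 0.08 (adjusted p = 1.03e-06). SEC62, a component of the protein-conducting channel of the ER, went from 855, 875 and 908 to 1360, 1340 and 1460 (0.66 ± 0.08, adjusted p = 1.34e-06). Its other probe set had a difference of 0.22 and did not pass. For both genes the groups were far apart beside the spread of their arrays.

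Groups of genes for this route were put together after these values were seen, so their counts describe and support nothing. Of 44 tested genes of ER folding, glycosylation and degradation, 11 rose in GM15036 and none fell, with a median log2 difference of 0.26. Over all 8101 tested genes with 1 probe set each, 175 rose (2.16%) and 62 fell, and the median was -0.05. That share covers genes of any brightness, and bright probe sets passed more often in GM15036. Of its 356 calls 83.7% had a mean signal of at least 100, against 25.6% of all tested probe sets. The part of brightness in the counts of these groups was not tested. Degradation was represented by DERL2, a channel protein for misfolded chains (0.72), the ubiquitin ligase MARCHF6 (0.78), SEL1L, an adaptor of the ligase complex (0.48), and HERPUD1 (0.37). Disulfide chemistry was represented by PDIA3, an isomerase for glycoproteins (0.50), TMX4 (0.69), TMX2 (0.52) and the ER peroxidase PRDX4 (0.56). Another TMX4 probe set had 0.20 and did not pass. RPN2 (0.52) and STT3A (0.45) belong to the oligosaccharyltransferase, which attaches N-glycans. The remaining gene was the chaperone HSPA5 (0.32). Across the 18 alternative settings of this line, 4 to 18 of the group rose and none fell, and leaving out 1 array left 8 to 10.

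Genes of the neighbouring steps of the route also rose in GM15036. Of 32 genes of translocation and membrane insertion 4 rose and none fell (median 0.10): EMC7, SEC62, the translocon-associated protein SSR2 (0.48) and the signal peptidase subunit SPCS3 (0.41, with -0.13 on its other probe set). Of 41 genes of ER-Golgi vesicles 7 rose and none fell, though the median of the group was only 0.06: the cargo receptors and adaptors TMED5 (0.66), ERGIC2 (0.59), CNIH1 (0.49), CNIH4 (0.64) and TMED10 (0.36), the COPI coat subunit COPB1 (0.43) and the COPII GTPase SAR1B (0.48). Of 30 Golgi glycosylation enzymes 4 rose and none fell (median 0.25). GALNT7, which starts or extends O-linked glycans, had signals of 222, 215 and 236 at 2.5 cGy and 430, 405 and 435 at 5 cGy (0.90 ± 0.10, adjusted p = 7.14e-07). The mannose trimmer MAN1A1 (0.93), MGAT2 (0.46) and the sialyltransferase ST6GAL1 (0.34) were the others. Another MGAT2 probe set had 0.16 and did not pass. A second probe set of MAN1A1 had a difference of -0.71 that did not pass (adjusted p = 0.485).

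In GM15510 the same groups gave fewer calls. ER folding, glycosylation and degradation had 5 genes higher and 1 lower of 44 with a median of 0.08, beside 121 higher (1.49%) and 99 lower among all 8101 genes at a median of 0.01. Those 5 were PDIA3 (0.54), DERL2 (0.36), PRDX4 (0.27), MAGT1 (0.66), a subunit of the oligosaccharyltransferase, and the disulfide reductase DNAJC10 (0.56). ERP29, an ER chaperone, was the lower one (-0.44). Over the 18 alternative settings 0 to 8 of the group rose and 0 to 2 fell in this line. Translocation had 2 higher, EMC7 (0.30) and TRAM1 (1.14), vesicles had 1, COPB1 (0.37), and Golgi enzymes had none on 1 probe set per gene. Among all 44 tested probe sets of the Golgi enzymes 1 rose. For TRAM1, a translocon partner, a brighter probe set rose by 0.67 in GM15036 and stood at 0.03 in GM15510, so its probe sets disagree. The median of the ER folding group on each array, taken relative to each gene's mean over the 12 arrays, was -0.02, -0.01 and 0.02 at 2.5 cGy in GM15036 and 0.21, 0.18 and 0.23 at 5 cGy. In GM15510 it was -0.15, -0.14 and -0.01 at 2.5 cGy and -0.05, -0.12 and -0.14 at 5 cGy, so that the doses did not overlap in GM15036 and did in GM15510. The overlap in GM15510 depends on the baseline. Relative to each gene's mean over the doses of that line, the arrays spanned -0.116 to -0.0127 and then -0.0159 to 0.0381, a slight overlap. On that baseline the Golgi enzymes (-0.0814 to -0.0022, then 0.00543 to 0.0431) and the ER stress and amino acid response genes did not overlap in GM15510. The translocation and vesicle genes did.

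**Figure D2:**
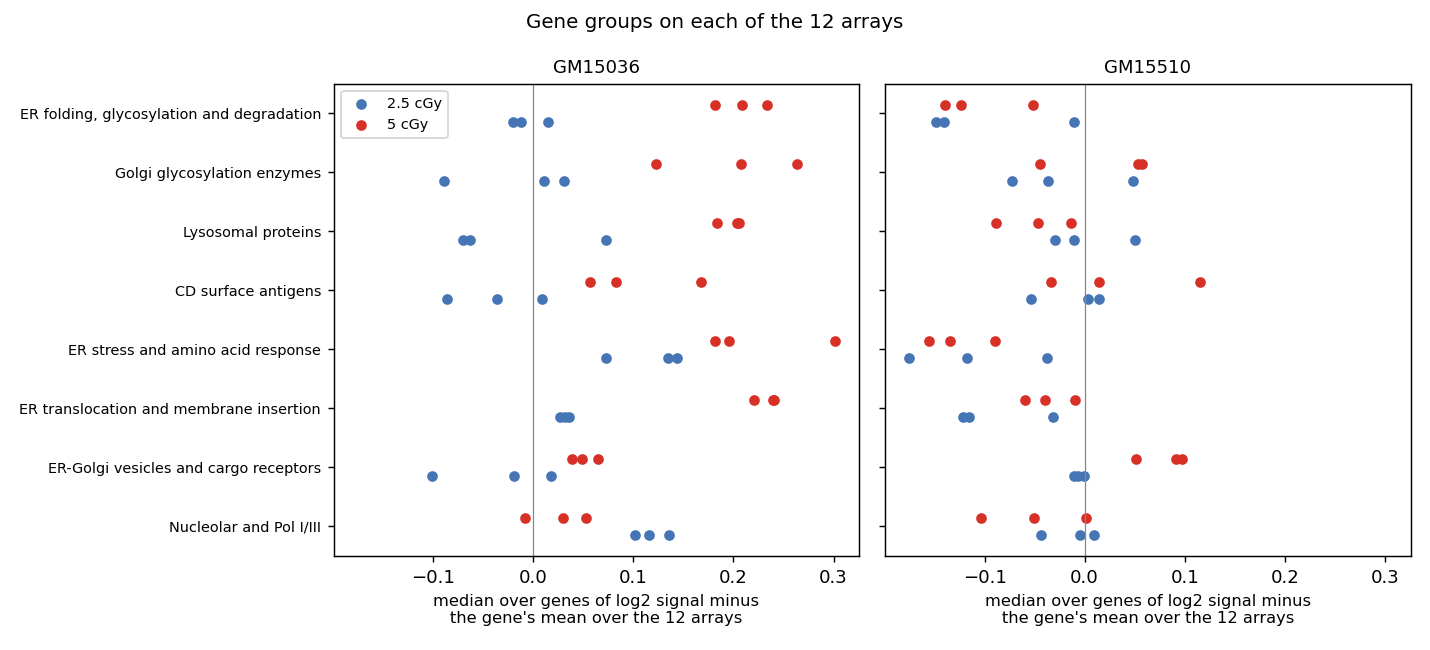
Each point is the median, over the genes of a group, of log2 signal minus the gene's own mean over the 12 arrays (horizontal axis), on 1 array, at 2.5 cGy (blue) and 5 cGy (red), for 8 groups (vertical axis). In GM15036 the 3 red points of ER folding lie at 0.18 to 0.23 and the blue ones at -0.02 to 0.02. In GM15510 the colours of this group mix on this baseline, which both lines share.

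Among the genes of both the ER folding group and the list of ER stress and amino acid response genes, the promoter elements of the unfolded protein response can be set beside the values. RefSeq promoters of GRCh38.p14, from 250 bases before to 50 after each gene start, were searched on both strands for ERSE (CCAAT and CCACG with any 9 bases between them) and ERSE-II (ATTGG and CCACG with any 1 base between them). ERSE was present in 27 of all 35116 promoters (0.0769%) and ERSE-II in 19 (0.0541%). Of 66 genes in the 2 lists 58 were in the promoter table, 8 with ERSE and 3 with ERSE-II, and no list gene held both. The 250 bases before the start are printed for the 3 genes with an element that passed, on the 1 probe set per gene used for the lists, in GM15036 or over both lines. They are HSPA5 (chr9:125241344-125241593, minus strand), XBP1 (chr22:28800570-28800819, minus strand, one of its alternative starts) and HERPUD1 (chr16:56931892-56932141, plus strand), and the element, in capitals, begins 66, 52 and 117 bases before the start in that order.
HSPA5: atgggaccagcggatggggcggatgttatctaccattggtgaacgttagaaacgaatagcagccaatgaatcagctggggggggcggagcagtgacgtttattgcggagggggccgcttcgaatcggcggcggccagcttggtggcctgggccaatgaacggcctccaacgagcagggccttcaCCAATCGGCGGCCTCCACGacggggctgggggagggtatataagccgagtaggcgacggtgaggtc
XBP1: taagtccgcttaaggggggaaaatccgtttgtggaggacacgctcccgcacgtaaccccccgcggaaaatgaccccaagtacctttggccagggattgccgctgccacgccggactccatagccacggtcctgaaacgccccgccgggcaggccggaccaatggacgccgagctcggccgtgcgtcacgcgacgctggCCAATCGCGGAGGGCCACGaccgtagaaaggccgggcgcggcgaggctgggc
HERPUD1: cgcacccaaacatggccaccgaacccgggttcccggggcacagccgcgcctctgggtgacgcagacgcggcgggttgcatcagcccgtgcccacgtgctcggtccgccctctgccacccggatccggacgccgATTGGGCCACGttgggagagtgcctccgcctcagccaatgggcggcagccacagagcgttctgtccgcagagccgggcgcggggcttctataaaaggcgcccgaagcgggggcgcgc

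HSPA5, the main chaperone of the ER, had signals of 1320, 1200 and 1190 at 2.5 cGy and 1580, 1490 and 1570 at 5 cGy in GM15036. The difference was 0.32 ± 0.08 (adjusted p = 0.0221), and it was no longer called when any of 4 of the 6 arrays was left out (highest adjusted p = 0.129). In GM15510 the signals of 1690, 1700 and 1510 went to 1910, 1750 and 1690, which overlap (0.13 ± 0.08, adjusted p = 0.443). HERPUD1, a degradation factor, went from 312, 292 and 292 to 379, 368 and 416 in GM15036 (0.37 ± 0.09, adjusted p = 0.0212). This call too was lost without any of 4 of the 6 arrays, with adjusted p up to 0.15. In GM15510 HERPUD1 lay at 280, 294 and 234 and then 206, 219 and 236 (-0.28 ± 0.09, adjusted p = 0.101), and the difference between the lines passed (-0.65 ± 0.13, adjusted p = 0.00665). XBP1, the transcription factor of the response, passed only in the average over the lines (0.27 ± 0.08, adjusted p = 0.0473). On the 1 probe set per gene used for the lists, the other ERSE genes did not pass in GM15036, with differences of 0.45 for CALR, 0.11 for CANX, 0.30 for CRELD2, 0.67 for ERO1B, 0.49 for HSP90B1 and 0.27 for PDIA6. Other probe sets of CANX, a lectin chaperone (0.52, adjusted p = 0.01), and of the disulfide isomerase PDIA6 (0.49, adjusted p = 0.000106, and 0.35, adjusted p = 0.0432) did pass there. Further probe sets of CANX (0.28), PDIA6 (0.20), CALR (-0.11 and -0.02) and HSP90B1 (-0.52, adjusted p = 0.105) did not, and those of CALR and HSP90B1 had the opposite sign to the values above. The further ERSE-II genes HYOU1 (-0.07) and SDF2L1 (0.16) did not pass either. A letter match describes the window and says nothing about factor binding.

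In the list of ER stress and amino acid response genes, 5 of 35 rose in GM15036 and none fell (median 0.16), namely PDIA3, SEL1L, MANF (0.40), HERPUD1 and HSPA5. The count ran from 0, with unscaled arrays centred on the median, to 10, with array weights. In GM15510 2 rose and 1 fell (median 0.08). The gene that fell was ATF4, the transcription factor that drives amino acid supply genes. Its signals there were 270, 276 and 235 at 2.5 cGy and 203, 192 and 156 at 5 cGy (-0.50 ± 0.10, adjusted p = 0.00566). In GM15036 they were 272, 299 and 291 and then 253, 236 and 229 (-0.26 ± 0.10, adjusted p = 0.214). ATF4 lay lower at 5 cGy on every array of both lines, the reverse of HSPA5 and PDIA3 in GM15036. Over both lines ATF4 fell by 0.38 on the log2 scale (adjusted p = 0.00152), a call lost when unscaled arrays were centred on the median (adjusted p = 0.485).

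Past the Golgi, lysosomal and surface genes also rose in GM15036. Of 41 lysosomal genes 8 rose and none fell (median 0.28), against 1 higher and 1 lower in GM15510 (median -0.02). GGH, which trims folate polyglutamates, had signals of 255, 282 and 233 at 2.5 cGy and 462, 472 and 445 at 5 cGy (0.83 ± 0.09, adjusted p = 7.14e-07). LIPA, the acid lipase that frees cholesterol, went from 182, 162 and 170 to 301, 270 and 288 (0.73 ± 0.09, adjusted p = 6.24e-06). PPT1 (0.64), GLA (0.63), LAPTM5 (0.47), LAPTM4B (0.46), the protease CTSC (0.32) and the tetraspanin CD63 (0.40) were the others. GGH moved by only 0.04 ± 0.09 in GM15510, where its arrays overlapped, and the difference between the lines passed (-0.79, adjusted p = 0.00119).

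CD58, the surface ligand through which target cells engage CD2 on T cells, was among the strongest changes in GM15036. The probe set with the smallest p went from 205, 187 and 209 at 2.5 cGy to 421, 379 and 401 at 5 cGy, a rise of 1.98-fold (0.98 ± 0.11, adjusted p = 7.14e-07). Another 2 probe sets rose by 0.78 and 1.04, whereas a further 2, at 0.28 and 0.39, did not pass. In GM15510 the first of these probe sets read 221, 207 and 234 at 2.5 cGy and 241, 228 and 259 at 5 cGy, which overlap (0.13 ± 0.11, adjusted p = 0.565). SLC39A8, a zinc and manganese importer, had the smallest p in GM15036: 198, 236 and 261 became 457, 425 and 429 (0.91 ± 0.09, adjusted p = 1.88e-07). In GM15510 it lay at 374, 390 and 382 and then at 437, 422 and 454 (0.19 ± 0.09, adjusted p = 0.263). A second SLC39A8 probe set passed in GM15510 (0.62, adjusted p = 0.0368) and not in GM15036 (0.46, adjusted p = 0.169), so the probe sets disagree on the line. On the first, at 5 cGy the lines reached nearly the same level of this gene, and at 2.5 cGy GM15036 was the lower one.

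Of 48 genes with CD names, with the same rule of 1 probe set per gene, 6 rose in GM15036 (median 0.19) and none passed in GM15510 (median 0.02). They were the hyaluronan receptor CD44 (0.66), the complement regulator CD46 (0.81), CD48 (0.75), CD53 (0.45), CD63 and the B cell activation marker CD83 (0.36). Another CD46 probe set had 0.14 in GM15036 and did not pass. The probe sets of CD44 differed: a dimmer one rose in GM15510 from 82.6, 62.0 and 91.5 to 149, 154 and 155 (0.94 ± 0.14, adjusted p = 0.000197), where the brighter one stood at -0.03. Further CD44 probe sets had differences from -0.188 to 0.535 in GM15036 and from -0.133 to 0.685 in GM15510, and none of them passed. Among B cell identity genes, MS4A1, which encodes CD20, had signals of 234, 232 and 236 and then 334, 350 and 334 in GM15036 (0.53 ± 0.10, adjusted p = 0.000983). HLA-DRA (0.50) and HLA-DRB1 (0.37), chains of the HLA class II molecules, rose as well, so that 3 of 29 genes of this list rose and none fell. None of the 29 passed in GM15510. TAP1, a peptide transporter subunit of the HLA class I route, rose by 0.71 in GM15036 (adjusted p = 4.19e-05).

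**Figure D3:**
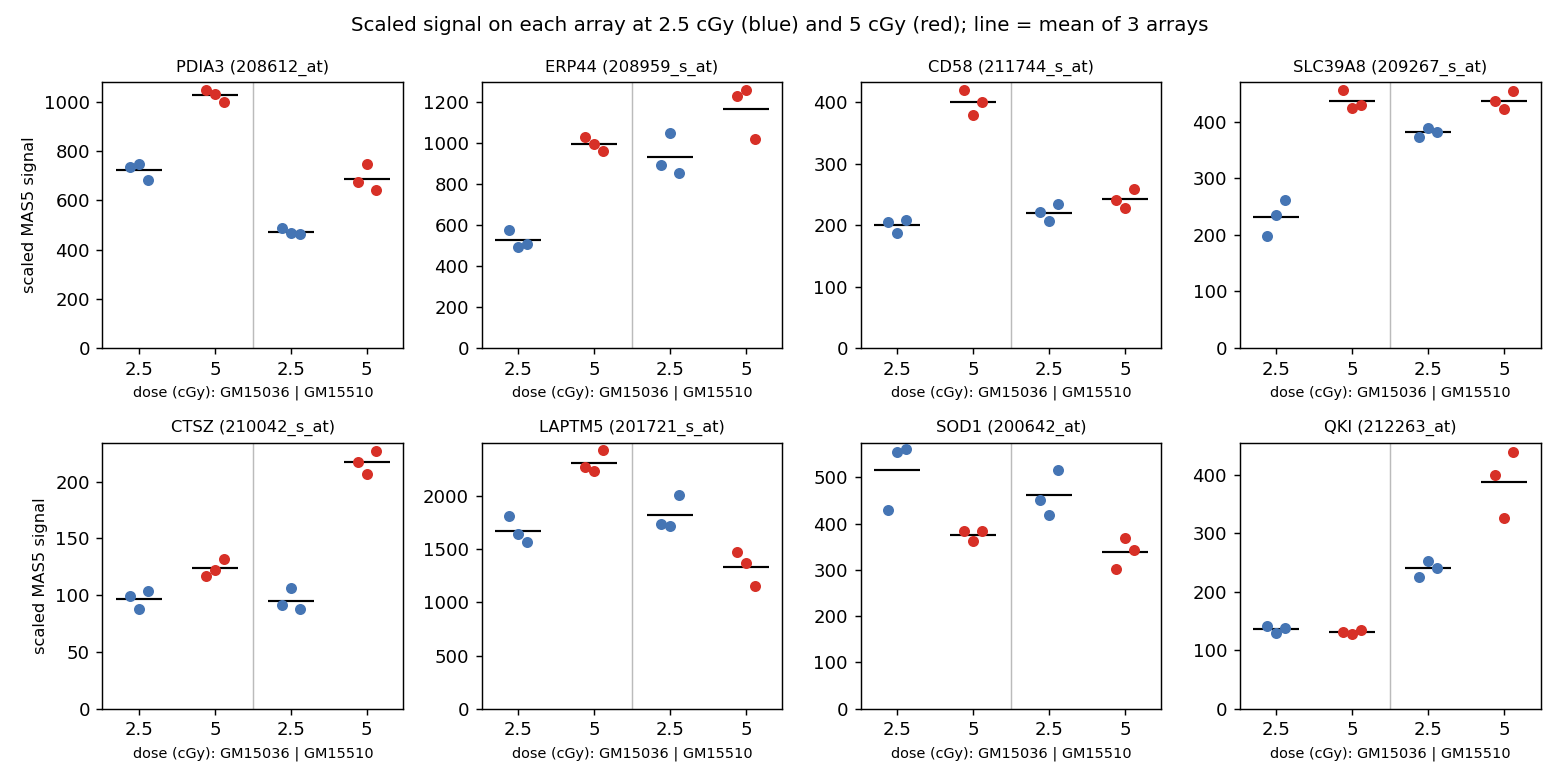
Scaled MAS5 signal (vertical axis) on each of the 12 arrays for 8 genes, with 2.5 cGy in blue, 5 cGy in red, GM15036 left and GM15510 right of the grey line, and the mean of 3 arrays as a bar. CD58 separates the doses in GM15036 (187 to 209 against 379 to 421) and not in GM15510, CTSZ and QKI rise in GM15510, LAPTM5 moves in opposite directions and SOD1 is lower at 5 cGy in both.

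The genes that fell in GM15036 were fewer and of other kinds. EIF5B, a GTPase that joins the ribosomal subunits at initiation, went from 1210, 1290 and 1420 to 751, 785 and 792 (-0.75 ± 0.10, adjusted p = 1.06e-05). A second of its 6 tested probe sets passed (-0.74, adjusted p = 0.00854), and the other 4 ranged from -0.65 to 0.13. Of 34 nucleolar and RNA polymerase I and III genes 2 fell and 1 rose (median -0.20), and the 12 histone genes had a median of -0.24 with 1 lower. By size alone, the lowest probe sets were dim. STAC read 26.2, 27.1 and 24 at 2.5 cGy and 3.64, 3.07 and 4.59 at 5 cGy (-1.94), and TBX6 read 33.7, 19.8 and 17.5 and then 5.37, 10.2 and 1.15 (-1.60). On the higher side MRPL35, of the mitochondrial ribosome, read 7.99, 2.03 and 1.5 and then 28.5, 32.6 and 37.6 (2.32), and ATP10D, a lipid flippase, read 60.2, 80.3 and 75.9 and then 178, 148 and 150 (1.10). STAC, TBX6 and MRPL35 thus lay, at 1 of the doses, near the pseudocount of 4, which limits what their differences measure.

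Some genes took the step in both lines. PDIA3 had the smallest p of the average over the lines: 734, 749 and 683 became 1050, 1030 and 1000 in GM15036, and 486, 469 and 463 became 673, 749 and 641 in GM15510. In each line all 5 cGy arrays lay above the 2.5 cGy arrays. The differences were 0.50 ± 0.08 and 0.54 ± 0.08, and their average was 0.52 ± 0.05 (adjusted p = 1.05e-06), a rise of 1.43-fold. Fitted on its own 6 arrays, GM15510 did not give this call (adjusted p = 0.0854). DERL2 rose by 0.72 in GM15036 and 0.36 in GM15510, and EMC7 by 0.70 and 0.30. COPB1 rose by 0.43 and 0.37, although its other probe set had differences of -0.06 and -0.30 that did not pass. IFNGR1, a chain of the interferon gamma receptor, rose on both of its tested probe sets. One of them had 198 to 252 at 2.5 cGy and 338 to 398 at 5 cGy in GM15036 (0.67 ± 0.12) and went from 128, 140 and 176 to 199, 217 and 229 in GM15510 (0.54 ± 0.12).

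By size, the highest changes of the average over the lines with no overlap of the arrays in either line, a pattern that 2.87% of all probe sets showed, included ATP10D (0.84), the protease CTSZ (0.75), the metalloprotease ADAM9 (0.69), the dimmer CD44 probe set (0.67) and the sphingomyelin synthase SGMS1 (0.66). For ADAM9 and SGMS1 the step in GM15036 alone did not pass (adjusted p = 0.0863 and 0.0545). Among the lowest were GOLGB1, a Golgi tether (-0.95, with 0.06 on its other probe set), and MYBPC2, a myosin-binding protein at signals of 1.22 to 27.8 (-1.54).

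Among bright genes that fell in both lines, SOD1, the cytosolic superoxide dismutase, had 430, 554 and 561 at 2.5 cGy and 383, 362 and 383 at 5 cGy in GM15036. In GM15510 it had 450, 419 and 516 and then 303, 369 and 344. The differences were -0.44 ± 0.10 in each line, and the doses did not overlap in either. RBM6, an RNA-binding protein, fell by 0.41 and 0.47, and SERPINB9, the inhibitor of granzyme B, by 0.51 and 0.66. The other SERPINB9 probe set did not pass in any comparison. With unscaled arrays centred on the median, the average over the lines no longer passed for SOD1 (adjusted p = 0.338), RBM6 (adjusted p = 0.311) or SERPINB9 (adjusted p = 0.131).

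In GM15510 the smallest p belonged to CTSZ, a lysosomal cysteine protease, with signals of 91.2, 106 and 87.8 at 2.5 cGy and 217, 207 and 227 at 5 cGy. The rise was 2.24-fold (1.16 ± 0.13, adjusted p = 4.08e-06), and it passed when GM15510 was fitted on its own 6 arrays (adjusted p = 0.00462). Most calls of this line did not: that fit kept 5 of the 342, and array weights kept 25. Unless another fit is named, adjusted p-values given for genes in GM15510 take the spread from all arrays of the series, not from this line alone. In GM15036 CTSZ read 99.3, 87.7 and 104 and then 117, 122 and 132, without overlap (0.34 ± 0.13, adjusted p = 0.224). IPO7, a nuclear import receptor, went from 44.7, 43.6 and 49.3 to 95.8, 98.9 and 113 (1.09 ± 0.16, adjusted p = 0.000143). A second IPO7 probe set also passed in GM15510 (0.75), and others had 0.21 and -0.48. QKI, a splicing regulator, went from 226, 253 and 241 to 400, 326 and 439 (0.68 ± 0.10, adjusted p = 0.000253), while its other 3 probe sets had -0.22, -0.12 and 0.14. VEGFA, the angiogenic growth factor that ER stress and hypoxia both raise, went from 77.4, 74.0 and 71.5 to 119, 121 and 117 (0.65 ± 0.12, adjusted p = 0.00318). These 3 genes showed no such step in GM15036, with differences of 0.00 for IPO7, -0.05 for QKI and 0.07 for VEGFA.

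Lower genes of GM15510 included LAMTOR5, part of the lysosomal Ragulator complex (153, 199 and 183 to 102, 95.1 and 122, -0.72 ± 0.12, adjusted p = 0.00183), although a further probe set stood at 0.16 without passing. The splicing-associated protein PNN fell by 0.79 on 1 probe set and by 0.43 on another, while the third had 0.34 and did not pass. IER2, an immediate-early gene, read 105, 149 and 189 and then 77.9, 66.3 and 81.0 (-0.91 ± 0.18, adjusted p = 0.0048). Without the 5 arrays of the series under a brightness of 20, which include 3 of the 6 in this comparison, VEGFA (adjusted p = 0.0924), LAMTOR5 (adjusted p = 0.162), PNN (adjusted p = 0.153) and IER2 (adjusted p = 0.283) no longer passed. That fit leaves 1 array of GM15510 at 2.5 cGy, assumed to vary like the other groups, which limits what the loss shows. By size alone the extremes were dim here too, as LRRC1 (1.79, 2.43 and 2.95 to 25.3, 26.2 and 32.4, 2.32) and QRSL1 (45.4, 40.2 and 30.8 to 2.47, 10.2 and 3.36, -2.27) show. A further QRSL1 probe set stood at 0.16. Without replicate 3 at 5 cGy, the bright array, 212 probe sets passed in GM15510, 109 higher and 103 lower.

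Whether a gene's step differed between the lines was tested directly as the step in GM15510 minus that in GM15036. This difference passed for 189 probe sets (1.42%), 82 higher (0.615%) and 107 lower (0.803%), and in 167 of them the 2 steps had opposite signs. Of the 356 calls of GM15036, 97 also differed between the lines, and of the 342 calls of GM15510, 64 did. The number fell to 15 when unscaled arrays were centred on the median (93.3% higher) and to 72 with centring after scaling (55.6% higher against 43.4%). LAPTM5, a lysosomal membrane protein of blood cells that lowers antigen receptor levels, went from 1810, 1640 and 1570 to 2270, 2230 and 2430 in GM15036. In GM15510 it went from 1730, 1720 and 2010 to 1470, 1370 and 1150. The steps were 0.47 ± 0.10 and -0.46 ± 0.10, with no overlap of the doses in either line, and their difference was -0.92 ± 0.14 (adjusted p = 0.000633). A second LAPTM5 probe set had steps of 0.02 and -0.43 that did not pass.

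ARL6IP5, an ER membrane protein, rose by 0.51 in GM15036 and fell by 0.37 in GM15510 on 1 probe set. Its second probe set rose by 0.83 in GM15036 and had a difference of 0.22 in GM15510. SARAF, which restrains the refilling of ER calcium, rose by 0.43 in GM15036 and fell by 0.35 in GM15510, from 1200, 1170 and 1420 to 1050, 993 and 913. A probe set annotated to HLA-G rose by 0.66 in GM15036 and had -0.42 in GM15510, which did not pass. Probe sets of this kind can detect several HLA class I genes, so the value cannot be given to 1 gene. DIPK1A rose by 0.86 in GM15036 and stood at -0.06 in GM15510.

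The opposite pattern was seen for GNL3L, a nucleolar GTPase, with signals of 97.9, 102 and 99.4 and then 41.4, 49.6 and 76.3 in GM15036, and 30.1, 34.3 and 19.6 and then 62.2, 75.8 and 80.5 in GM15510. The difference between the lines was 2.12 ± 0.28 (adjusted p = 4.6e-05), but the other GNL3L probe sets, at -0.74 and -0.68 in GM15036 and -0.05 and -0.28 in GM15510, did not pass. KHDRBS1, an RNA-binding signalling adaptor, fell by 0.42 in GM15036 and rose by 0.59 in GM15510 on 1 of its 3 probe sets. MAP4, a microtubule-associated protein, fell by 0.69 in GM15036, as did WSB1, a ubiquitin ligase subunit, by 0.62, and their values in GM15510, 0.46 and 0.42, did not pass. Another MAP4 probe set rose by 1.30 in GM15510 (adjusted p = 0.00566) and had 0.18 in GM15036. The other probe sets of KHDRBS1, MAP4 and WSB1 showed no difference between the lines past the threshold. A probe set that the annotation pairs with GGCX rose by 0.97 in GM15510, whereas the other 3 GGCX probe sets did not pass. Among B cell genes, the steps of HLA-DRA (-0.81, adjusted p = 0.00665), HLA-DMB (-0.98, adjusted p = 0.0193) and MS4A1 (-0.60, adjusted p = 0.0192) were lower in GM15510. For HLA-DMB the 2.5 cGy arrays of GM15510 read 314, 296 and 633, so 1 array lay far above the others.

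Of 24 radiation and stress genes, 19 were tested, and 2 rose in GM15036, FAS and ATM, where 2.16% of all genes rose. FAS, the death receptor, went from 213, 173 and 177 to 304, 320 and 420 (0.87 ± 0.16, adjusted p = 0.00092). A second probe set of FAS rose by 0.72, and a further 2, at 0.56 and 0.69, did not pass. ATM, the kinase that responds to double-strand breaks, went from 50.7, 42.8 and 37.3 to 75.9, 102 and 80.1 (0.92 ± 0.19, adjusted p = 0.00437), and its other 2 probe sets, at -0.03 and -0.22, did not pass. None of the 19 passed in GM15510 on the 1 probe set per gene used for the lists. CDKN1A, the p53-driven cell cycle inhibitor, had 197, 164 and 177 and then 193, 213 and 195 in GM15036, and 124, 176 and 135 and then 225, 141 and 157 in GM15510, which overlap in both lines (0.16 ± 0.14 and 0.25 ± 0.14). MDM2 stood at -0.13 and 0.17 and GADD45A at 0.30 and 0.10. Of 22 p53 targets, FAS alone passed on 1 probe set per gene, in GM15036 and over both lines. Among all 30 tested probe sets of these genes 1 fell in GM15510.

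Other lists can be read against all genes, of any brightness, of which 2.16% rose and 0.765% fell in GM15036 and 1.49% rose and 1.22% fell in GM15510. On 1 probe set per gene, none of 39 genes of G1/S and replication passed. Among all 56 tested probe sets of these genes 1 rose in GM15510 and 1 over both lines. Of 50 genes of G2/M and mitosis 2 rose and 1 fell in GM15036 and 1 fell in GM15510. Of 52 cytosolic ribosomal protein genes 1 fell in GM15036 and 4 fell in GM15510, with medians of -0.01 and -0.08. Of 61 oxidative phosphorylation genes none passed in GM15036, and 1 rose and 2 fell in GM15510 (medians 0.07 and -0.11). Of 35 interferon-stimulated genes 2 rose in GM15036, of 24 NF-kB targets 1 rose there, and of 24 apoptosis regulators 1 fell in GM15510.

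The levels at the other doses place the step. Of the 261 probe sets that were higher at 5 cGy in GM15036, 246 (94.3%) had their highest mean of all 5 doses at 5 cGy, and 128 (49.0%) had their lowest at 2.5 cGy, against 17.2% and 14.3% of all probe sets. In GM15510, of the 188 higher ones, 95 (50.5%) were highest at 5 cGy and 153 (81.4%) were lowest at 2.5 cGy, against 19.5% and 25.5%. The choice of these probe sets favours such orders, so the shares describe and are not tested. Unscaled brightness also differed between the doses. From 1 to 10 cGy its means were 69.65, 49.9, 51.3, 32.4 and 22.1 in GM15036 and 69.4, 18.7, 39.0, 67.8 and 89.1 in GM15510. The arrays at 2.5 cGy were thus the dimmest of GM15510, and those of GM15036 grew dimmer past 5 cGy. The part of brightness in the order of the doses was not tested. PDIA3 in GM15036 had mean log2 levels of 9.73 at 1 cGy, 9.50 at 2.5, 10.01 at 5, 9.35 at 7.5 and 9.54 at 10 cGy. CD58 had 8.13, 7.67, 8.66, 7.77 and 7.83 in the same order of doses, and SLC39A8 had 8.42, 7.87, 8.78, 8.02 and 7.95. For these 3 genes 5 cGy was the highest dose in GM15036. In GM15510 PDIA3 had 9.40, 8.89, 9.43, 9.75 and 9.62, so that 2.5 cGy was its lowest level and 7.5 cGy its highest. The ER folding group as a whole, relative to each gene's mean over the doses of GM15036, had medians of 0.07, -0.09, 0.18, -0.13 and 0.03 from 1 to 10 cGy. In GM15510 its medians were -0.03, -0.03, -0.02, 0.14 and -0.02.

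**Figure D4:**
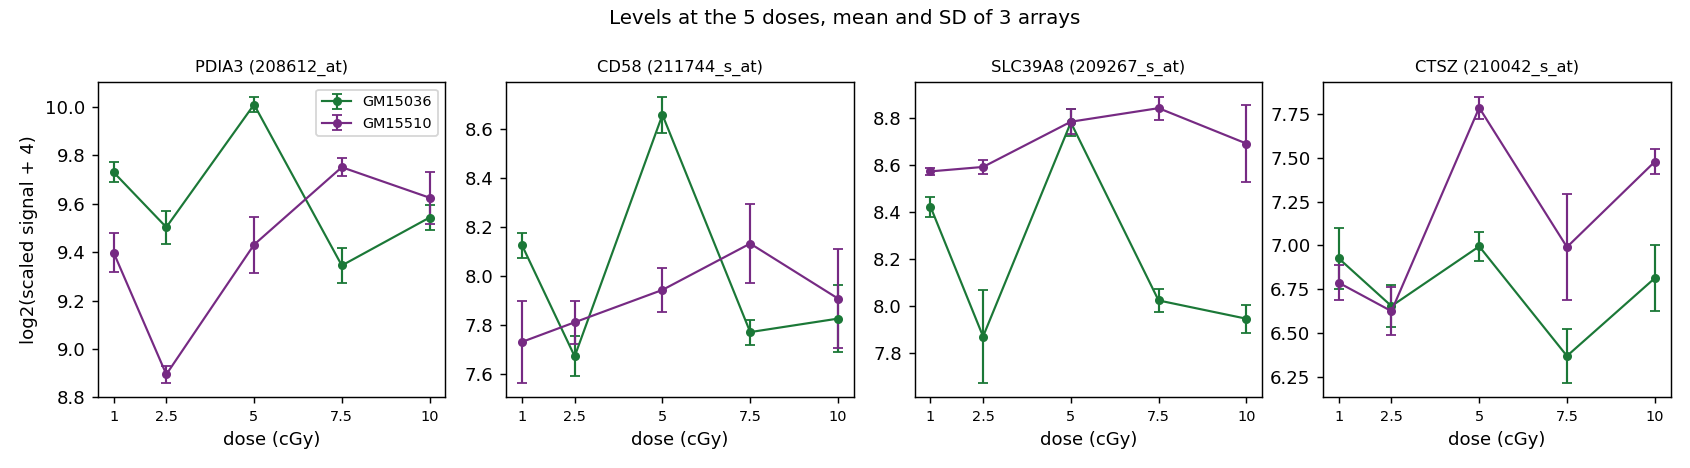
Mean log2(scaled signal + 4) and SD of 3 arrays (vertical axis) at each dose in cGy (horizontal axis) for 4 genes in GM15036 (green) and GM15510 (purple). PDIA3, CD58 and SLC39A8 peak at 5 cGy in GM15036, at 10.01, 8.66 and 8.78, and CTSZ peaks at 5 cGy in both lines.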

How the data were processed

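RNA of 30 arrays was measured on an Affymetrix platform, and the authors deposited MAS5 signal intensity values on a linear scale, per the submitters' processing notes. Version and scaling target are not given in the sources used here. Brightness, the mean of an array's values between percentiles 2 and 98, ranged from 14.1 to 112, so each array was scaled to their mean, 50.9. A pseudocount of 4 was added before log2, so that differences understate the change of dim genes. Of 22283 probe sets, 68 controls and those with a mean log2 at or under percentile 40 were left out. Only probe sets with 1 gene symbol (19071) were named, with symbols updated through RefSeq. Limma 3.58.1 in R 4.3.3 fitted the 10 groups of line and dose on all 30 arrays with an intensity trend (20 residual and 12.3 prior degrees of freedom). Tests were two-sided with Benjamini-Hochberg adjustment over 13329 probe sets, at 0.05, and the script was tested on simulated data. The number of arrays limits the precision.

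Lists had 1 probe set per gene (highest mean, _x_at and _s_at only for lack of others). The rule named the 10 highest and lowest non-overlapping changes per step, the 10 smallest p of the difference, up to 4 members per list and 24 fixed genes. The members and lists were chosen with earlier results of these data known. The 6 groups (those of the secretory route and lysosome, and CD names) and the genes named from them or for their small p were chosen after their values were seen. Alternatives covered normalization, pseudocount, filter, variance model, covariates, replicate block, dim arrays and probe sets, and leaving out each array. Same-numbered arrays did not deviate together, so the numbers were not used as pairs.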

Additional observations from a re-analysis of the deposited data

Results flagged for a closer look

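The steps of the lines differed by the direct test (limma, adjusted p under 0.05) for these named genes, each given as the log2 step in GM15510 minus that in GM15036. Lower in GM15510 were ARL6IP5 (-0.88), DIPK1A (-0.91), LAPTM5 (-0.92), a probe set annotated to HLA-G that can detect several HLA class I genes (-1.08), SARAF (-0.79), CD58 (-0.85), 1 of 3 SLC39A8 probe sets (-0.72), GGH (-0.79), HERPUD1 (-0.65), HLA-DRA (-0.81) and MS4A1 (-0.60). Higher in GM15510 were GNL3L (2.12), the GGCX probe set (1.23), MAP4 (1.15), KHDRBS1 (1.01), WSB1 (1.04) and CTSZ (0.82). With unscaled arrays centred on the median, GNL3L, GGCX, MAP4 and WSB1 still passed and the others did not. The difference of MS4A1 was lost without GM15036 5 cGy replicate b (adjusted p = 0.0505), and that of CTSZ without GM15036 2.5 cGy replicate c (adjusted p = 0.0569) or 5 cGy replicate a (adjusted p = 0.0582), or without the 5 arrays under a brightness of 20 (adjusted p = 0.0599, with 1 array of GM15510 left at 2.5 cGy). The causes were not tested.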

How the results depend on the processing

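Calls over both lines (main 467) fell to 143 on the 12 arrays alone. In GM15036 (main 356) they came to 95 with median centring, 228 without a trend, 898 with array weights and 626 with the line fitted alone. In GM15510 (main 342) they came to 207 without a trend, 25 with array weights, 147 on the 12 arrays alone, 6 with the line fitted alone, 148 with brightness as a covariate and 209 without the 5 arrays under a brightness of 20, an alternative chosen after seeing the data that leaves 1 array of that line at 2.5 cGy, assumed to vary like the other groups. Differences between the lines (main 189) came to 15 with median centring, 72 with centring after scaling, 101 without a trend, 83 on the 12 arrays alone and 125 with the ACTB ratio as a covariate. Other settings, among them quantile normalization, pseudocounts of 1 and 16, the filters, robust eBayes and the GAPDH ratio, and, chosen after seeing the data, probe sets of a mean signal of at least 100, stayed within 1.5 times. This compares numbers of calls, not which probe sets they were. Median centring kept 314 of the 467 calls over both lines and 185 of the 342 of GM15510. Quantile normalization kept 419 and 311. Leaving out 1 array gave 297 to 538 calls over both lines, 197 to 275 in GM15036, 172 to 416 in GM15510 and 104 to 253 differences. Over both lines, only leaving out GM15036 2.5 cGy replicate b moved the count by over 1.5 times. In GM15036 each of the 6 arrays but 2.5 cGy replicate a did so (197 without 2.5 cGy b, 209 without c, 211, 233 and 224 without 5 cGy a, b and c). In GM15510 these were 2.5 cGy replicate 3 (207), 5 cGy replicate 2b (172) and 5 cGy replicate 3 (212). For the difference they were each GM15036 array (115, 107 and 121 without the 2.5 cGy arrays a to c, then 109, 125 and 104 without those of 5 cGy) and GM15510 5 cGy replicate 2b (125). With the replicate block, calls numbered 450, 333, 325 and 172 in that order, and the labels do not say that numbers pair arrays. For genes named here, 49 calls of the main fit were followed through the settings. None turned direction, and over these calls and settings they were kept in 1257 cases and lost in 61. These calls had been picked, so the numbers do not describe all calls. Of the 342 calls of GM15510, 5 were kept with the line fitted alone and 25 with array weights. Of the 189 differences, 15 were kept with median centring. The smaller fits hold fewer arrays, and for the rest the cause was not tested.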
